A study of Homo sapiens with 12 samples.

Results

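Serglycin (SRGN) and 9 enzymes that build and sulfate glycosaminoglycan side chains were followed across sublines of HMC-1, an established human mast cell line. The 10 genes were matched by symbol in tables of 58381 genes. All 10 were among the 15944 genes that passed the filter on low counts and were tested. They are the core protein SRGN, the heparan sulfate polymerases EXT1 and EXT2, the heparan-modifying enzymes NDST1, NDST2, GLCE, HS2ST1 and HS6ST1, and the chondroitin enzymes CHSY1 and CHST11. Polyadenylated RNA was sequenced from 12 cultures, 3 in each of 4 groups. HMC-1.1 carries V560G-KIT, HMC-1.2 carries D816V-KIT together with V560G-KIT, and HMC-1.3 clone 1 and clone 2 came from HMC-1.2 by CRISPR/Cas9 reversal of V560G-KIT, which left D816V-KIT alone. No group carries only unmutated KIT, no treatment was given in the sequenced cultures, and the editing template also held a silent change beside the repaired base. In the study's methods the clones also went through electroporation, puromycin selection and limiting dilution, which are not described for HMC-1.1 or HMC-1.2. Each HMC-1.3 group is 1 clone, and the 3 libraries of a group are wells of the same line, so p-values measure the spread between wells and not between independently derived lines.

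Mast cell granules are filled with serglycin, a small core protein whose serine-glycine repeats carry many glycosaminoglycan chains. In connective tissue mast cells these chains are largely heparin, in others largely chondroitin sulfate, and their negative charge holds histamine and proteases in the granule. Heparin and heparan sulfate chains are started on a linker of xylose, galactose and glucuronic acid, lengthened by EXT1 and EXT2, and then modified in order by N-deacetylase/N-sulfotransferases, the epimerase GLCE and the O-sulfotransferases. Chondroitin chains use the same linker but are lengthened by CHSY1 and its partners and sulfated by CHST11 and related enzymes.

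Expected counts were used for the tests, and FPKM, which is scaled for transcript length and library size, for levels. Totals ran from 29225900 to 43181402 counts per library. "Passed the test" means an adjusted p under 0.05 in edgeR's quasi-likelihood test, and "changed" adds a fold over 1.5. Of 16 mast cell markers, 12 to 13 had a mean of at least 1 FPKM in each group, and the markers MS4A2, CMA1 and CTSG were under 1 FPKM in every library. The 23 markers of other cell types all had group means under 3 FPKM, with the largest summed level, 14.6 FPKM for 4 epithelial genes, in 1 clone 2 library. In such bulk RNA, fewer cells with a transcript and less of it per cell cannot be told apart. The KIT genotype cannot be read from these tables.

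HMC-1.2 stood apart from the other sublines for most of the 10 genes. Against HMC-1.2, 8 members were lower and 1 was higher in clone 1, 7 were lower and 2 higher in clone 2, and 7 were lower and 1 higher for HMC-1.1, at an adjusted p under 0.05 in edgeR's quasi-likelihood test. Over all genes tested, the shares that passed were 29.3% lower and 30.1% higher in clone 1, 23.8% and 24.7% in clone 2, and 26.5% and 27.2% for HMC-1.1. With the 1.5-fold threshold, NDST2, CHSY1 and CHST11 were lower and GLCE was higher in clone 1 and in HMC-1.1, and NDST2 and CHSY1 were lower in clone 2. The background for these calls was 8.18% lower and 11.8% higher in clone 1, 8.51% and 7.98% in clone 2, and 7.52% and 10.1% for HMC-1.1. The median log2 fold change of the 10 members was -0.34 in clone 1, -0.25 in clone 2 and -0.44 for HMC-1.1, beside 0.01, 0.00 and 0.01 for all genes tested. These comparisons share the same 3 HMC-1.2 libraries, so they do not stand as separate evidence for each other.

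**Figure D1:**
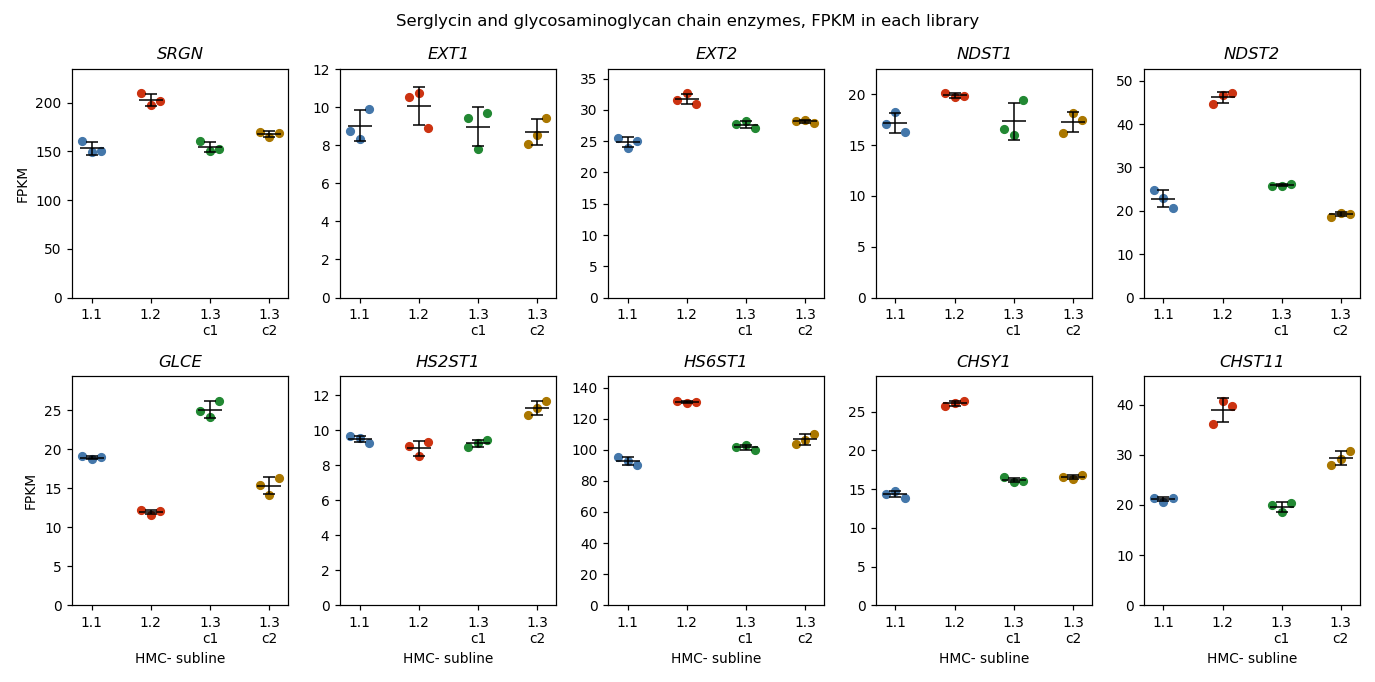
FPKM (y axis, from 0) of the 10 genes in each of the 12 libraries, by subline (x axis; c1 and c2 are the HMC-1.3 clones). Points are libraries, bars are the mean and SD of 3 libraries; the HMC-1.2 points lie above all others for 7 genes and below all others for GLCE.

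In 7 of the 10 genes, SRGN, NDST1, NDST2, EXT2, HS6ST1, CHSY1 and CHST11, every HMC-1.2 library had a higher FPKM than each of the other 9 libraries. Among all genes tested, 12.4% had this pattern. The opposite pattern, with every HMC-1.2 library lowest, held for GLCE alone among the members, and for 16.7% of all genes tested. The same 7 genes and GLCE stood apart on the CPM scale (counts scaled to the library). For EXT1 and HS2ST1 the HMC-1.2 libraries overlapped with those of other groups.

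SRGN, the core protein, had the highest level of the 10 in each group. It was at 210, 198 and 202 FPKM in the HMC-1.2 libraries, at 161, 151 and 152 in clone 1, at 170, 165 and 169 in clone 2, and at 161, 149 and 150 for HMC-1.1. The HMC-1.2 values did not overlap with any other, and clone 2 lay between them and the range shared by clone 1 and HMC-1.1. In edgeR's test SRGN fell by 0.45 ± 0.04 (log2, SE) in clone 1 (adjusted p = 1.49e-08), by 0.31 ± 0.04 in clone 2 (adjusted p = 2.11e-06) and by 0.46 ± 0.04 for HMC-1.1 (adjusted p = 1.29e-08). None of these differences reached 1.5-fold. SRGN (ENSG00000122862) lies on chromosome 10 at 69088103 to 69104805, plus strand, in GRCh38.

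The 5 genes whose library pattern was nearest to that of SRGN were MRGBP, ARPC2, FADD, PPP6R1 and NOSIP. They were found among 8887 genes that passed a floor on level and on the range of group means. The measure was the root mean square difference in gene-centred log2 CPM over the 12 libraries, which ran from 0.033 for MRGBP to 0.043 for NOSIP. No member of the pathway was among them. ARPC2, a subunit of the actin-nucleating ARP2/3 complex, had a mean of 371 FPKM in HMC-1.2 and of 268 to 293 FPKM in the other groups. The group means of SRGN span 0.46 on the log2 scale.

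NDST2 showed the largest fall of the 10 in clone 2 and in HMC-1.1. It encodes an N-deacetylase/N-sulfotransferase, the enzyme class that opens heparan modification, and it is the one needed for heparin in mast cell granules. It was at 44.8, 46.7 and 47.2 FPKM in the HMC-1.2 libraries, at 25.8, 25.8 and 26.1 in clone 1, at 18.7, 19.6 and 19.3 in clone 2, and at 24.7, 22.9 and 20.8 for HMC-1.1. The lowest HMC-1.2 library thus lay well above the highest of the others, and the clone 2 libraries were below all the rest. The log2 fold change against HMC-1.2 was -0.82 ± 0.04 in clone 1 (adjusted p = 1.69e-11), -1.26 ± 0.04 in clone 2 (adjusted p = 7.33e-14) and -1.04 ± 0.04 for HMC-1.1 (adjusted p = 8.47e-13), or 1.76-, 2.40- and 2.05-fold lower.

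NDST2 (ENSG00000166507) occupies chromosome 10 from 73801911 to 73811798 on the minus strand. A readthrough gene, ENSG00000272916, overlaps it on the same strand and joins it to ZSWIM8-AS1 downstream. Expected counts of NDST2 were not whole in 11 of 12 libraries, and which genes shared its reads was not tested. ENSG00000272916 held 115 to 246 counts per library, against 1450 to 3715 for NDST2. It was itself lower than in HMC-1.2, with log2 fold changes of -0.44 in clone 1 (adjusted p = 0.0241), -1.25 in clone 2 (adjusted p = 8.51e-06) and -0.61 for HMC-1.1 (adjusted p = 0.00384).

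NDST1, the more widely expressed enzyme of the same class, moved much less. Its mean (± SD of 3 libraries) was 19.9 ± 0.2 FPKM for HMC-1.2, against 17.4 ± 1.8 for clone 1, 17.3 ± 1.0 for clone 2 and 17.2 ± 1.0 for HMC-1.1. The nearest library to HMC-1.2 was a clone 1 library at 19.5 FPKM, against 19.7 for the lowest HMC-1.2 library. The log2 fold changes were -0.15 ± 0.05 in clone 1 (adjusted p = 0.0136), -0.20 ± 0.05 in clone 2 (adjusted p = 0.00231) and -0.14 ± 0.05 for HMC-1.1 (adjusted p = 0.0234). The call was lost in clone 1 without clone 1 replicate 2 (adjusted p = 0.055), and in HMC-1.1 without HMC-1.1 replicate 3 (0.101), HMC-1.2 replicate 1 (0.0771) or HMC-1.2 replicate 3 (0.0573). In clone 2 it was lost with limma on log2(FPKM + 1) (adjusted p = 0.0525).

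The balance of both enzymes differed between the sublines. Within a library, NDST2 stood at 2.32 ± 0.09 times NDST1 (ratio of FPKM, SD, n = 3) in HMC-1.2, at 1.502 ± 0.14 in clone 1, at 1.11 ± 0.04 in clone 2 and at 1.33 ± 0.11 for HMC-1.1. The lowest HMC-1.2 ratio was 2.22 and the highest of the other 9 was 1.61, and for expected counts these were 0.770 and 0.524. The exact two-sided permutation test gave p = 0.1 for each subline against HMC-1.2, the smallest p that 3 against 3 libraries allow. NDST3 and NDST4, the remaining enzymes of this class, had group means of 0 to 0.00333 FPKM and were not tested.

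**Figure D2:**
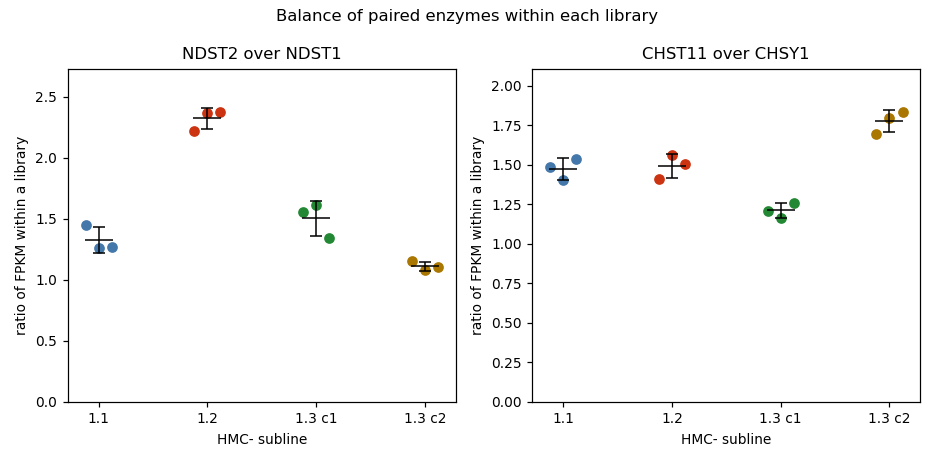
Ratio of FPKM within each library (y axis, from 0) for NDST2 over NDST1 and for CHST11 over CHSY1, by subline (x axis). Points are libraries and bars the mean and SD of 3; NDST2 over NDST1 is at 2.22 to 2.37 in HMC-1.2 and at most 1.61 elsewhere, and CHST11 over CHSY1 is highest in clone 2.

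CHSY1 and CHST11 act on chondroitin chains, the first as a polymerase and the second as a 4-O-sulfotransferase. CHSY1 was at 25.7, 26.1 and 26.4 FPKM in the HMC-1.2 libraries, at 16.5, 15.9 and 16.1 in clone 1, at 16.5, 16.3 and 16.8 in clone 2, and at 14.4, 14.7 and 13.9 for HMC-1.1. The clones overlapped with each other, HMC-1.1 lay below both, and HMC-1.2 lay above all. The fall was 1.67-fold in clone 1 (log2 -0.74 ± 0.03, adjusted p = 8.5e-12), 1.61-fold in clone 2 (-0.69 ± 0.03, adjusted p = 2.41e-11) and 1.86-fold for HMC-1.1 (-0.89 ± 0.03, adjusted p = 8.64e-13).

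CHST11 was at 36.2, 40.8 and 39.8 FPKM in the HMC-1.2 libraries, at 19.96, 18.5 and 20.3 in clone 1, at 28.0, 29.2 and 30.8 in clone 2, and at 21.4, 20.7 and 21.4 for HMC-1.1. Here the clones did not overlap, and clone 2 took a place between HMC-1.2 and the other groups. In counts, CHST11 was 1.78-fold lower in clone 1 (log2 -0.83 ± 0.03, adjusted p = 1.14e-12), 1.27-fold lower in clone 2 (-0.34 ± 0.03, adjusted p = 1.33e-07) and 1.61-fold lower for HMC-1.1 (-0.69 ± 0.03, adjusted p = 1.61e-11). The log2 ratio of mean FPKM was larger in size, at -0.99, -0.41 and -0.88. The transcript length implied by both tables, counts divided by FPKM and the library total, was 4.65 ± 0.24 kb in HMC-1.2, 5.38 ± 0.15 in clone 1, 4.92 ± 0.32 in clone 2 and 5.42 ± 0.05 for HMC-1.1, and it was shortest where FPKM was highest.

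Within a library CHST11 stood at 1.49 ± 0.08 times CHSY1 (ratio of FPKM) in HMC-1.2, at 1.21 ± 0.05 in clone 1, at 1.77 ± 0.07 in clone 2 and at 1.47 ± 0.07 for HMC-1.1. The clones lay on opposite sides of HMC-1.2 with no overlap, whereas HMC-1.1 and HMC-1.2 overlapped. The exact two-sided permutation p was 0.1 for each clone against HMC-1.2, the smallest possible, and 0.7 for HMC-1.1. The ratio of expected counts, an alternative chosen after the data were seen, was 1.62 to 1.68 over the HMC-1.2 libraries, 1.52 to 1.59 for clone 1, 2.01 to 2.16 for clone 2 and 1.83 to 2.00 for HMC-1.1. On that scale HMC-1.1 and HMC-1.2 did not overlap. CHSY1 (ENSG00000131873) lies on chromosome 15 at 101175727 to 101252048, minus strand, and CHST11 (ENSG00000171310) on chromosome 12 at 104455295 to 104762014, plus strand.

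GLCE, the epimerase that turns glucuronic into iduronic acid in heparan chains, moved the other way. It was at 12.2, 11.6 and 12.1 FPKM in the HMC-1.2 libraries, at 24.9, 24.1 and 26.2 in clone 1, at 15.4, 14.2 and 16.4 in clone 2, and at 19.1, 18.7 and 19.0 for HMC-1.1. The groups were fully separated, in the order HMC-1.2, clone 2, HMC-1.1 and clone 1 from low to high. GLCE rose 2.11-fold in clone 1 (log2 1.08 ± 0.05, adjusted p = 2.83e-12), 1.26-fold in clone 2 (0.33 ± 0.05, adjusted p = 1.78e-05) and 1.64-fold for HMC-1.1 (0.72 ± 0.05, adjusted p = 8.97e-10). GLCE (ENSG00000138604) lies on chromosome 15 at 69160584 to 69272217, plus strand.

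Letters upstream of the start sites are shown for NDST2 and CHSY1, which fell in all 3 groups against HMC-1.2, and for GLCE, which rose. The CHST11 window is not shown. They were taken from RefSeq promoters (GRCh38.p14), which matched 8 of the 10 members, and SRGN and EXT1 had no entry. The windows are chr10:73811821-73812070 (minus strand), chr15:101252049-101252298 (minus strand) and chr15:69160385-69160583 (plus strand), the last ending where the annotated gene begins. Capitals mark GGGCGG, the GC box, and CACGTG, an E-box, on either strand.
NDST2: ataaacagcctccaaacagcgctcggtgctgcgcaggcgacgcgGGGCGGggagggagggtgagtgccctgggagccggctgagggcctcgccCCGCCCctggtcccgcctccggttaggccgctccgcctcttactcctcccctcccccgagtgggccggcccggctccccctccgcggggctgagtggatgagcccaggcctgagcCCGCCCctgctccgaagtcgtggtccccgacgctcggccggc
CHSY1: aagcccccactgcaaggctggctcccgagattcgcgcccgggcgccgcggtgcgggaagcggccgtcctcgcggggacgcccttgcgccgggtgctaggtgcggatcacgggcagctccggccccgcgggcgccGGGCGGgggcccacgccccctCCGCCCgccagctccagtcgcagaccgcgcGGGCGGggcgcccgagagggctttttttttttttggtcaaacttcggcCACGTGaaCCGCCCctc
GLCE: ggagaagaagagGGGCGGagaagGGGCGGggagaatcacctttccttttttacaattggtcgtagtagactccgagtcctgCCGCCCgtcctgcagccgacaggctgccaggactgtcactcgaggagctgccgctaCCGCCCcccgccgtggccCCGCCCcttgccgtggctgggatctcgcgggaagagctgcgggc

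The 8 matched members have 11 windows, and all but that of EXT2 with start site 44095678 held the GC box. It occurred 3 times for NDST2 here, 4 times for CHSY1 and 5 times for GLCE. Of the 35116 RefSeq windows of 250 bases, 42.6% held it. The E-box CACGTG was found only before CHSY1 among the members, 17 bases from its start, and in 6.34% of all windows. The GATA letters TGATAA, in 6.66% of all windows, were in none of the members' windows. The GAS letters TTCNNNGAA, the form bound by STAT factors, were found once, before the inner of the 2 start sites listed for NDST2, and in 6.57% of all windows. The AP-1 letters TGANTCA were found once, before NDST1, and also in 6.57% of windows. GC content was 75.2% for the NDST2 window shown, 74.8% for CHSY1 and 68.8% for the full GLCE window, against a median of 58.0% over all windows. All motifs were searched on both strands, and a match is a run of letters, not a measured site.

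HS6ST1, a 6-O-sulfotransferase of heparan chains, was second in level to SRGN in every group. It was at 131, 130 and 131 FPKM in the HMC-1.2 libraries, at 102, 103 and 99.8 in clone 1, at 103, 106 and 110 in clone 2, and at 95.1, 92.5 and 90.5 for HMC-1.1. Clone 1 lay just below clone 2 without overlap, and HMC-1.2 was separate from all. It fell by 0.42 ± 0.03 (log2) in clone 1 (adjusted p = 1.69e-09), by 0.32 ± 0.03 in clone 2 (adjusted p = 8.32e-08) and by 0.54 ± 0.03 for HMC-1.1 (adjusted p = 8.82e-11), each under 1.5-fold. Its expected counts were not whole in any of the 12 libraries, and its level carries that uncertainty. HS6ST2, its relative, was near 0, where an HMC-1.2 library held 18 to 24 counts and any other library 0 to 9.

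HS2ST1, the 2-O-sulfotransferase that acts on iduronic acid, passed the test against HMC-1.2 in clone 2 but not in clone 1 or HMC-1.1. It was at 9.08, 8.52 and 9.34 FPKM in the HMC-1.2 libraries and at 10.9, 11.3 and 11.7 in clone 2, with no overlap. Clone 1, at 9.07 to 9.45, and HMC-1.1, at 9.29 to 9.66, overlapped with HMC-1.2. The log2 fold change was 0.40 ± 0.05 in clone 2 (adjusted p = 1.75e-06), while it was 0.05 in clone 1 (95% interval -0.06 to 0.16, adjusted p = 0.399) and 0.09 in HMC-1.1 (-0.02 to 0.20, adjusted p = 0.137). Without HMC-1.1 replicate 3 the latter passed (adjusted p = 0.0248). Clone 1 was lower than clone 2 by 0.35 ± 0.05 in the direct comparison (adjusted p = 7.87e-06). Expected counts of HS2ST1 were not whole in 8 of 12 libraries, and the genes that shared its reads were not looked for.

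EXT1 and EXT2 form the complex that lengthens heparan chains. EXT2 ranged from 31.0 to 32.7 FPKM over the HMC-1.2 libraries, 27.1 to 28.2 in clone 1, 27.9 to 28.4 in clone 2 and 23.9 to 25.5 for HMC-1.1. It fell by 0.25 ± 0.05 (log2, adjusted p = 0.000165), 0.20 ± 0.05 (0.00132) and 0.42 ± 0.05 (7.67e-07), so HMC-1.2 was highest and HMC-1.1 lowest. EXT1, on chromosome 8, had the lowest or next to lowest level of the 10, at 7.79 to 10.7 FPKM over all libraries.

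EXT1 was lower in clone 1 than in HMC-1.2 (log2 -0.19 ± 0.06, adjusted p = 0.0081), and did not pass in clone 2 (-0.14 ± 0.06, adjusted p = 0.0515) or in HMC-1.1 (-0.08 ± 0.06, adjusted p = 0.227). Its FPKM overlapped between all groups. The clone 1 call was lost with limma on log2(FPKM + 1) (adjusted p = 0.244), and clone 2 passed without clone 2 replicate 3 (adjusted p = 0.00606). EXT2 stood at 3.17 ± 0.26 times EXT1 in HMC-1.2 and at 2.77 ± 0.21 to 3.26 ± 0.27 times in the other groups.

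**Figure D3:**
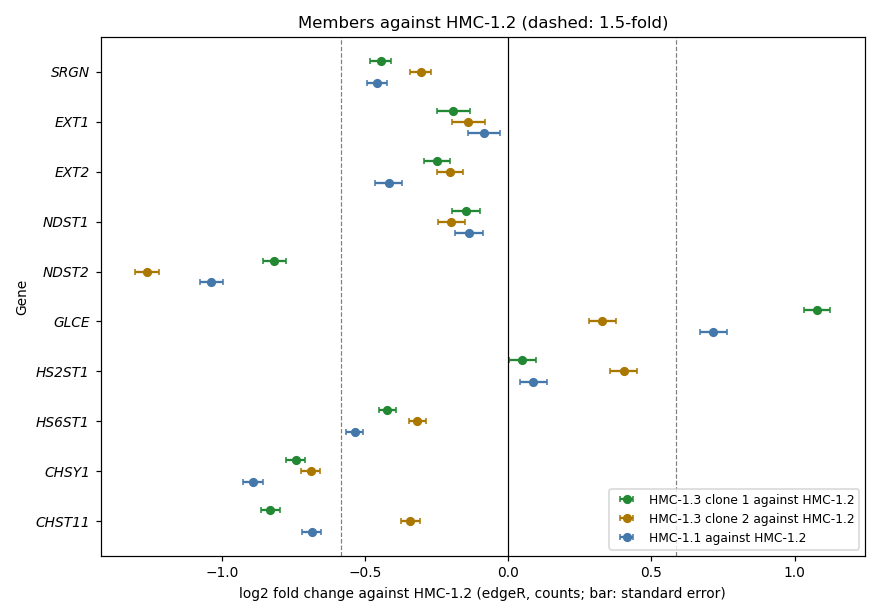
Log2 fold change (x axis, edgeR, counts) of the 10 genes (y axis) in each of 3 groups against HMC-1.2; bars are standard errors and dashed lines 1.5-fold. NDST2, CHSY1 and CHST11 lie furthest left and GLCE furthest right in clone 1 and HMC-1.1, NDST2 and CHSY1 furthest left and HS2ST1 furthest right in clone 2, and the clones part most at GLCE, CHST11 and NDST2.

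Between HMC-1.3 clone 1 and HMC-1.1, which carry different KIT mutations, none of the 10 genes changed by 1.5-fold, beside 1.01% of all genes tested, and 5 members passed the test higher and 1 lower in clone 1, beside 8.87% and 9.83%. The 6 that passed were GLCE (log2 0.36 ± 0.04), NDST2 (0.22 ± 0.04), EXT2 (0.17 ± 0.05), CHSY1 (0.15 ± 0.04), HS6ST1 (0.11 ± 0.03) and CHST11 (-0.14 ± 0.03). The same 6 had an unadjusted p under 0.05 in edgeR, and the count of 1.5-fold changes was also 0 with DESeq2 and limma. SRGN differed by 0.01 (95% interval -0.07 to 0.10). Without HMC-1.1 replicate 3, only 3 passed in edgeR, since EXT2 (adjusted p = 0.0587), HS6ST1 (0.0789) and CHSY1 (0.0527) no longer did. EXT2 and HS6ST1 were also lost without HMC-1.1 replicate 2 (0.116 and 0.0664), clone 1 replicate 1 (0.0599 and 0.0688) or clone 1 replicate 2 (0.0889 and 0.0859). With limma on log2(FPKM + 1) the calls of NDST2 (adjusted p = 0.0646) and CHST11 (0.28) were lost, and likewise on log2(FPKM + 0.1) (0.0652 and 0.28).

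Clone 2 differed from HMC-1.1 in more members, again with none past 1.5-fold in edgeR, DESeq2 or limma, beside 8.19% of all genes tested. Of the 10, 6 passed higher and 2 lower, beside 18.5% and 17.5%, and the same 8 had an unadjusted p under 0.05. The higher ones were CHST11 (log2 0.34 ± 0.03), HS2ST1 (0.31 ± 0.05), HS6ST1 (0.22 ± 0.03), EXT2 (0.21 ± 0.05), CHSY1 (0.20 ± 0.04) and SRGN (0.15 ± 0.04). GLCE (-0.39 ± 0.05) and NDST2 (-0.22 ± 0.04) were lower.

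The clones, which were derived from the same parent by the same edit, differed from each other in 6 of the 10 genes. NDST2 and GLCE were higher in clone 1, beside 25.5% of all genes, and SRGN, HS2ST1, HS6ST1 and CHST11 were lower, beside 24.7%. GLCE alone passed 1.5-fold (log2 0.75 ± 0.04, adjusted p = 5.32e-10), beside 12.6% of all genes tested. CHST11 differed by -0.49 ± 0.03 (adjusted p = 2.74e-09) and NDST2 by 0.44 ± 0.04 (adjusted p = 1.46e-07). HS6ST1 differed by -0.10 ± 0.03 (adjusted p = 0.007), a call lost with limma on log2(FPKM + 1) (adjusted p = 0.0844) and log2(FPKM + 0.1) (0.0909). EXT1, EXT2, NDST1 and CHSY1 did not pass, with differences of -0.05 to 0.05.

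The members were also set beside the genes around them on the chromosome. Over the tested genes that start within 2 Mb, the median log2 fold change of clone 1 against HMC-1.2 was -0.05 around NDST2 (51 genes), 0.10 around GLCE (24), 0.10 around CHSY1 (22) and -0.06 around CHST11 (18). In clone 2 these medians were -0.03, 0.08, -0.13 and 0.08. The 10 tested neighbours of EXT1 had medians of -0.24 in clone 1, -0.32 in clone 2 and -0.27 for HMC-1.1, each larger in size than the difference of EXT1 itself.

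Close to the start sites, some neighbours moved in the direction of the member. Within 0.15 Mb of GLCE only PAQR5 and NOX5 were tested. PAQR5, a membrane progesterone receptor gene, was higher than in HMC-1.2 by 1.07 in clone 1, 1.53 in clone 2 and 1.104 for HMC-1.1 (log2, adjusted p = 2.63e-11, 1.74e-13 and 1.97e-11). NOX5 was higher by 0.87 in clone 1 (adjusted p = 0.00916) and 0.98 in HMC-1.1 (adjusted p = 0.0044), with a difference of 0.15 in clone 2 (adjusted p = 0.689) at a mean of 0.874 CPM in HMC-1.2. Of the 17 tested genes this close to NDST2, 7 passed lower and 0 higher in each group against HMC-1.2. Over all genes tested, 29.3% passed lower and 30.1% higher in clone 1, 23.8% and 24.7% in clone 2, and 26.5% and 27.2% for HMC-1.1. The 7 in each group include ENSG00000272916, the readthrough gene that overlaps NDST2 and is not a separate neighbour. The groups share the same HMC-1.2 libraries, so they do not count as separate evidence. PLAU, which encodes urokinase and is among the 7 in each group, was lower by 5.01 in clone 1, 4.22 in clone 2 and 5.55 for HMC-1.1. ZSWIM8, next to NDST2 on the other strand, differed by -0.05, 0.01 and -0.03. CAMK2G, a calcium-dependent kinase gene also among the 7 in each group, was lower by 0.19, 0.43 and 0.32. SELENOS and SNRPA1, the only tested genes this close to CHSY1, passed lower in each group, beside the same shares over all genes. They were lower by 0.36 and 0.38 in clone 1, 0.20 and 0.09 in clone 2, and 0.45 and 0.29 for HMC-1.1. SNRPA1 in clone 2 was close to the threshold (adjusted p = 0.0494 in edgeR). The part of position in these differences was not tested.

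**Figure D4:**
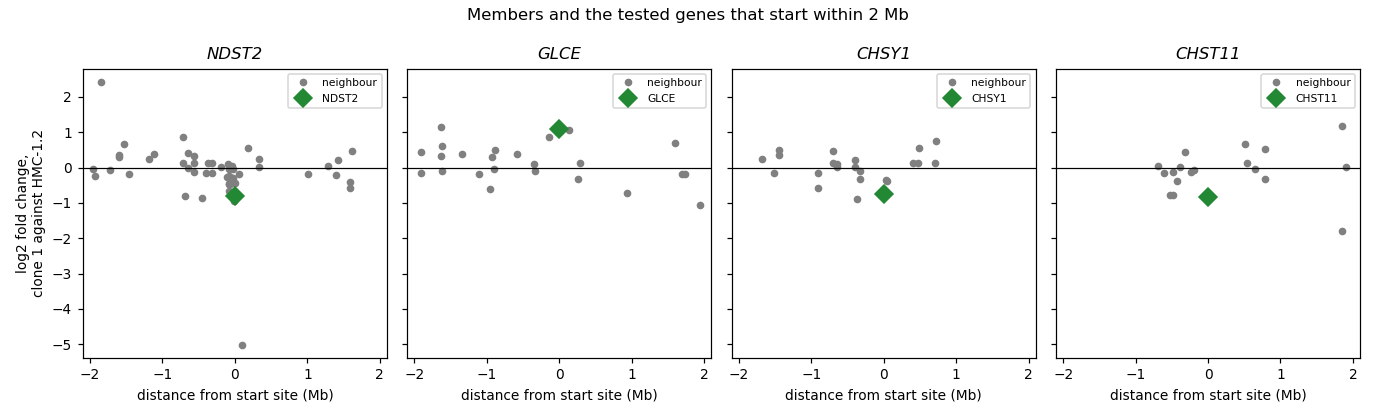
Log2 fold change of clone 1 against HMC-1.2 (y axis) for NDST2, GLCE, CHSY1 and CHST11 (diamonds) and for the tested genes that start within 2 Mb (grey points), by distance from the member's start site (x axis, Mb). Neighbours scatter around 0, with medians of -0.05 to 0.10, and PAQR5, close to GLCE, lies at 1.07 beside 1.08 for GLCE.

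The rest of the pathway was counted over 79 further genes in 8 lists, of which 57 were tested. Against HMC-1.2, 8 were changed higher and 13 lower in clone 1, 6 and 11 in clone 2, and 5 and 11 for HMC-1.1, where the background for all genes tested was 11.8% and 8.18%, 7.98% and 8.51%, and 10.1% and 7.52%. The median log2 fold change of the 57 was -0.10, -0.07 and -0.11, nearer to 0 than that of the members. Clone 1 and HMC-1.1 differed by 1.5-fold in none of the 57, beside 1.01% of all genes tested. In that comparison 11 passed the test higher in clone 1 and 6 lower, beside 8.87% and 9.83% of all genes tested.

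Among the 7 linker genes, XYLT1 and B4GALT7 were changed lower in each group against HMC-1.2 and none was changed higher. The shares of all genes tested were 8.18% lower and 11.8% higher in clone 1, 8.51% and 7.98% in clone 2, and 7.52% and 10.1% for HMC-1.1. XYLT1, which places the first xylose on the core protein, was low throughout, at 0.88 ± 0.04 FPKM in HMC-1.2 and 0.34 to 0.39 on average in the others. Its relative XYLT2 was at 10.3 ± 0.35 FPKM in HMC-1.2 and did not pass in any of these comparisons. B4GALT7, which adds the first galactose, was at 10.3 ± 1.5 FPKM in HMC-1.2 and 4.56 to 5.69 on average elsewhere, and the 50 tested genes within 2 Mb had a median log2 fold change of -0.91 in clone 1, -0.98 in clone 2 and -0.96 for HMC-1.1, nearly that of B4GALT7 itself (-1.15, -1.06 and -1.04). B3GAT3, the glucuronyltransferase that completes the linker and the highest of the list, was at 22.3 ± 0.7 FPKM in HMC-1.2 and 26.8 ± 0.3 in clone 1.

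For heparan chains, EXTL2 and HS3ST3A1 were changed higher in all 3 groups. EXTL2, an N-acetylhexosaminyltransferase that can act on the linker, was at 5.55 ± 0.54 FPKM in HMC-1.2 and 9.09 to 10.1 on average in the others (log2 0.66, 0.82 and 0.72). The 15 tested genes within 2 Mb of EXTL2 had medians of 0.75, 0.60 and 0.63, near its own. HS3ST3A1, a 3-O-sulfotransferase, was at 9.54 ± 0.16 FPKM in HMC-1.2 and 17.2 to 18.7 elsewhere (log2 0.84, 0.90 and 0.81), and its near copy HS3ST3B1 rose less (0.15, 0.28 and 0.39), so the division of reads between these paralogs leaves both uncertain. EXTL3, which starts heparan chains, was the highest of its list at 19.7 ± 0.9 FPKM in HMC-1.2 and fell by 0.25 in clone 1. HS6ST2 was changed lower in each group and SULF2, an extracellular 6-O-sulfatase, in clone 2, both under 0.5 FPKM in every library. HS3ST1, HS3ST5 and HS3ST6 had no group mean above 0.00333 FPKM.

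For chondroitin chains, CHPF and CHPF2 fell with CHSY1, whereas CSGALNACT2, which starts chondroitin chains, passed higher in clone 1 (log2 0.21, adjusted p = 0.000541 in edgeR) and lower in clone 2 (-0.12, adjusted p = 0.0421) and HMC-1.1 (-0.12, adjusted p = 0.0324). CHPF and CHPF2, the chondroitin polymerizing factors, were at 23.3 ± 1.0 and 25.2 ± 0.6 FPKM in HMC-1.2 and at 16.3 to 16.4 and 15.3 to 19.4 on average in the other groups. Both passed the test in each group (log2 -0.42 to -0.80), and 1.5-fold in clone 1 alone. CHST15, which adds the second sulfate that makes the chondroitin sulfate E unit, was at 7.12 ± 0.41 FPKM in HMC-1.2, 11.6 ± 1.2 in clone 1, 11.6 ± 0.6 in HMC-1.1 and 6.63 ± 0.23 in clone 2, so the clones differed by 0.76 (log2, adjusted p = 5.97e-09). CHST14, the dermatan 4-O-sulfotransferase and the highest of its list, was at 22.2 ± 0.7 FPKM in HMC-1.2 and fell by 0.22 to 0.27. UST, DSEL and CHST3, which were called in at least 1 group, were all under 1 FPKM, and CHST3 had at most 1 count in any HMC-1.2 library.

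Of the 10 tested genes of precursor supply only PAPSS2 was changed, lower in each group, at 0.61 ± 0.31 FPKM in HMC-1.2 with wide spread between libraries. The shares of all genes tested were 8.18% lower and 11.8% higher in clone 1, 8.51% and 7.98% in clone 2, and 7.52% and 10.1% for HMC-1.1. PAPSS1, the other synthase of the sulfate donor PAPS, was at 37.8 ± 0.8 FPKM in HMC-1.2 and 37.1 to 39.8 elsewhere and passed in none of these comparisons. UGP2, which makes UDP-glucose, was the highest of the list at 70.0 ± 2.5 FPKM in HMC-1.2 and differed by at most 0.11 on the log2 scale.

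Over the 10 tested genes for other core proteins, the median log2 fold change against HMC-1.2 was -1.35 in clone 1, -0.23 in clone 2 and -1.42 for HMC-1.1. These medians lean on genes at low levels, with means of 1.41 (GPC3), 1.38 (SDC2), 0.36 (CD74) and 0.26 FPKM (GPC4) in HMC-1.2. In clone 1 these genes ran from -4.24 (GPC4) to -1.29 (SDC2). In clone 2, SDC2 and CD74 were at 0.62 and 1.16, and CD74 passed the test in neither clone. HSPG2, which encodes perlecan, was at 17.5 ± 2.9 FPKM in HMC-1.2, 3.82 ± 0.47 in clone 1, 2.28 ± 0.37 in clone 2 and 4.40 ± 0.15 for HMC-1.1 (log2 -1.98, -2.75 and -2.07). SDC4, a cell surface syndecan, was at 12.4 FPKM in each HMC-1.2 library and at 3.78 to 5.16 in the others (log2 -1.41, -1.51 and -1.66). GPC3 and GPC4 were also changed lower in all 3 groups, both at low levels, and an HMC-1.2 library held 31 to 52 counts of GPC4, any other library 1 to 8. SDC2 fell in clone 1 (log2 -1.29, adjusted p = 0.000161) and HMC-1.1 and rose in clone 2 (0.62, adjusted p = 0.019), at 1.38 ± 0.62 FPKM in HMC-1.2. SDC3, another syndecan and the highest of the list outside HMC-1.2, was at 10.6 ± 0.7 FPKM in HMC-1.2 and rose by 0.40 to 0.56, under 1.5-fold.

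Of 13 tested genes of chain degradation, 4 were changed higher and 1 lower in clone 1, 1 and 2 in clone 2, and 1 and 1 for HMC-1.1. Over all genes tested, 11.8% changed higher and 8.18% lower in clone 1, 7.98% and 8.51% in clone 2, and 10.1% and 7.52% for HMC-1.1. NAGLU, the lysosomal N-acetylglucosaminidase, was at 10.1 ± 0.7 FPKM in HMC-1.2 and rose by 0.95 in clone 1, 0.58 in clone 2 and 0.60 for HMC-1.1. HEXA, IDUA and ARSG were changed higher in clone 1 alone of the 3 groups, ARSB was changed higher and HGSNAT lower in clone 2. HPSE, the heparanase that cuts these chains, had group means of 0 to 0.01 FPKM.

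**Figure D5:**
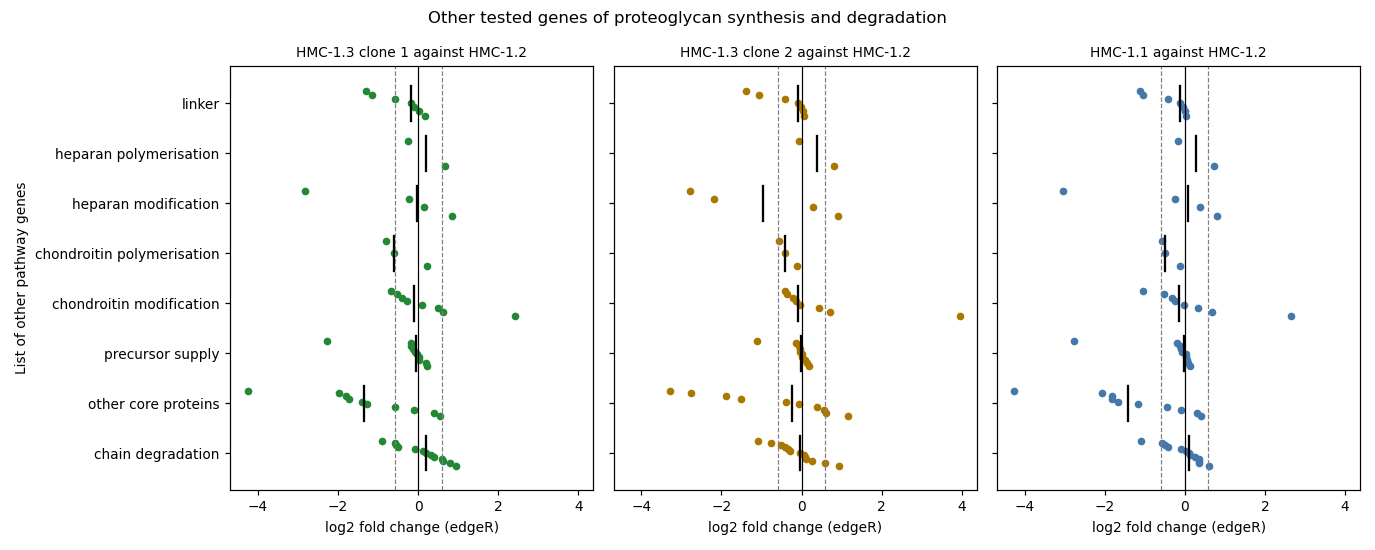
Log2 fold change against HMC-1.2 (x axis, edgeR) of the 57 tested pathway genes other than the 10 members, by list (y axis), in clone 1, clone 2 and HMC-1.1. Points are genes, black bars are list medians and dashed lines 1.5-fold. In clone 1 the core protein median is -1.35 and leans on genes at low levels, such as GPC4. In precursor supply PAPSS2 alone lies beyond the dashed lines.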

How the data were processed

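Libraries were made from polyadenylated RNA of 12 cultures with a stranded kit. Per the labels and the study's methods, reads were trimmed with cutadapt 2.10, aligned to hg38 with STAR 2.5.3 and quantified with RSEM 1.3.0. The authors deposited RSEM expected counts per gene, not normalized, in which 7.39% of values are not whole because reads that match several genes are shared out. The authors deposited FPKM values for the same genes and libraries, scaled for transcript length and library size. Groups came from the labels.

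Counts were rounded, scaled by TMM factors (0.974 to 1.024), filtered with filterByExpr to 15944 genes and tested with edgeR 4.0.16 (R 4.3.3) in 1 model of the 4 groups, with Benjamini-Hochberg adjustment over all genes tested and the thresholds 0.05 and 1.5-fold. Intervals are 95%. The common coefficient of variation was 0.044, and replicate libraries differed beyond sampling noise (chi-square per degree of freedom 2.92 to 8.2). Ratios within libraries were compared by exact permutation, and were taken from counts too. The 10 members and the gene lists were chosen with earlier results of these data known. All members are named; other pathway genes are named where changed in at least 1 comparison with HMC-1.2, or where highest in their list. Some genes of the chain degradation list that this rule would name are not reported here. XYLT2, PAPSS1, HS3ST3B1, CSGALNACT2, CD74, the genes near 0 and the genes near NDST2, GLCE and CHSY1 were chosen after their values were seen. The 5 genes most like SRGN were those with the smallest root mean square difference among tested genes of at least 10 CPM. Their group means also had to span a minimum range, set from that of SRGN. Neighbours, 2 Mb or 0.15 Mb away, were located with Gencode 44 and identifiers without version. Alternatives were DESeq2 1.42.0, RLE scaling, no filter, a filter of 0.5 CPM in 1 library, only the groups compared, a replicate block, a term for libraries labelled as resent, glmTreat at 1.5-fold, limma 3.58.1 on log2(FPKM + 1) and log2(FPKM + 0.1), and each library left out. The fits were tested on simulated data. Libraries with the same replicate number were not treated as pairs in the main model. Correlations of their deviations between groups were -0.04 to 0.10, beside -0.11 to 0.08 for different numbers.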

Additional observations from a re-analysis of the deposited data

Results flagged for a closer look

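The HMC-1.3 clones differed from each other in their change against HMC-1.2 for 6 of the 10 genes, by the direct edgeR contrast of the clones, with Benjamini-Hochberg adjustment over all genes tested. By the same contrast 25.5% of all genes tested were higher and 24.7% lower in clone 1, so such differences were common. On the log2 scale, clone 1 minus clone 2 was 0.75 for GLCE (adjusted p = 5.32e-10), -0.49 for CHST11 (adjusted p = 2.74e-09) and 0.44 for NDST2 (adjusted p = 1.46e-07). It was -0.35 for HS2ST1 (adjusted p = 7.87e-06), -0.14 for SRGN (adjusted p = 0.00419) and -0.10 for HS6ST1 (adjusted p = 0.007). The HS6ST1 call was lost with limma on log2(FPKM + 1) (adjusted p = 0.0844) and log2(FPKM + 0.1) (adjusted p = 0.0909). For each of these 6 genes no clone 1 library overlapped with a clone 2 library in FPKM. The 6 were picked by a test of the same libraries, so this separation is not added evidence. Its share over all genes was not counted.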

How the results depend on the processing

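The count of members changed against HMC-1.2 was 4 for clone 1, 2 for clone 2 and 4 for HMC-1.1 under each alternative run, with a replicate block too, and NDST2, CHSY1, and in clone 1 and HMC-1.1 also CHST11 and GLCE, kept their calls. With the replicate block the genes changed over the whole table were 3185 for clone 1 (3193 without it) and 2637 for clone 2 (2630 without it). It brought EXT1 in clone 2 past the threshold (log2 -0.14, adjusted p = 0.0407 in edgeR), as did RLE scaling (0.0471) and the 0.5 CPM filter (0.0484). Of 600 values under settings other than leaving out a library, 546 kept direction and side of the threshold, 45 lost the call, 3 gained it and 6 reversed, and 35 of the 45 losses came from glmTreat, which tests for more than 1.5-fold. Of 720 values with a library left out, 700 were kept, 13 lost, 2 gained and 5 reversed. Reversals were all of values near 0. With limma on log2(FPKM + 1) and log2(FPKM + 0.1), NDST1 against HMC-1.1 was 0.0087 and 0.009 in clone 1 and 0.0078 and 0.0082 in clone 2, and EXT1 between the clones was 0.0401 and 0.0438. With a library left out, clone 1 against HMC-1.1 ran -0.02 to 0.0481 for SRGN and -0.0495 to 0.0223 for NDST1, and EXT1 between the clones ran -0.0997 to 0.0101. Members that passed in clone 1 against HMC-1.1 ran from 3 to 6, and other pathway genes changed there from 0 to 1. Counts of other pathway genes changed fell under glmTreat to 13 in clone 1, 3 in clone 2 against HMC-1.1 and 6 between the clones, from 21, 11 and 11. With limma on log2(FPKM + 1) they were, relative to HMC-1.2, 13 for clone 1, 8 for clone 2 and 10 for HMC-1.1 (21, 17 and 16 by edgeR), 4 in clone 2 against HMC-1.1 and 7 between the clones, and 5 in clone 2 against HMC-1.1 on log2(FPKM + 0.1). The cause was not tested. Low genes such as GPC4 and CHST3 rest on few counts.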
